A study of Mus musculus with 20 samples.

Results

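The RNAs of 8 genes are described here, taken by symbol from a table of 24552 mouse genes: *Snhg1*, *Snhg3*, *Snhg6*, *Snhg8*, *Snhg12*, *Gas5*, *Malat1* and *Neat1*. All 8 make long noncoding RNAs. *Snhg1* was chosen by its normalized counts at 12 and 24 months in these same libraries, where it rose, so that rise is given as a description with no test, and counts of members called or differing between ages cover the other 7 genes. Of those 7, *Snhg6* was too low to be tested, which left 6.

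The libraries came from scraped (debrided) corneal epithelium of wild-type, naive female C57BL/6J mice. Each library held the epithelium of both eyes of 1 animal, and there were 5 libraries in each of 4 age groups: young (2 to 3 months), 12-month (12 to 13 months), 18-month (18 to 19 months) and 24-month (24 to 25 months). RNA was sequenced from the 3′ end after oligo-dT priming, and the reads assigned to genes numbered 6699383 to 10762360 in a library (median 8731333.5). Values are normalized counts, that is, the reads of a gene divided by a size factor of its library. The 12 corneal epithelium markers, among them the keratin *Krt12*, were all above the test filter, with a summed level of 422513 to 522737 normalized counts. The 10 markers of stromal keratocytes summed to 1742 to 4743 normalized counts in the young libraries and to 342 to 1112 at 24 months, with 706 to 1612 in the 12-month and 669 to 1399 in the 18-month group. None of these 10 genes was at 0 in all libraries, but *Ptgds* was at 0 in every young and 24-month library. The summed level of the 9 leukocyte markers was 150 to 324 in the young group and 82.9 to 161 at 24 months. The part of these other cells in the results below was not tested, and in bulk RNA a change in the number of cells cannot be told apart from a change in RNA per cell.

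Small nucleolar RNAs (snoRNAs) guide the chemical modification and processing of ribosomal RNA in the nucleolus. Most of them are cut out of the introns of a host gene, and in the *Snhg* genes (small nucleolar RNA host genes) and *Gas5* (growth arrest specific) the spliced exons make no known protein and are often degraded by nonsense-mediated decay during translation. *Malat1* and *Neat1* act in the nucleus: *Malat1* RNA collects in nuclear speckles, which hold splicing factors, and *Neat1* RNA is the scaffold of paraspeckles, bodies built on RNA that retain certain proteins and transcripts.

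The annotation matched both names. In GENCODE annotation of the GRCm38 build, 8 snoRNA genes lay inside *Snhg1* (chr19:8723475-8726443, + strand), 2 inside *Snhg3* (chr4:132348014-132353686, − strand), 1 inside *Snhg6* (chr1:9941959-9944118, − strand) and 1 inside *Snhg8* (chr3:123507552-123508404, − strand). Another 5 entries lay inside *Snhg12* (chr4:132308623-132311024, + strand) and 10 inside *Gas5* (chr1:161034422-161038539, + strand). All of these snoRNAs were on the strand of their host. *Malat1* (chr19:5795690-5802672, − strand) and *Neat1* (chr19:5824708-5845478, − strand) held 0 snoRNA genes and are neighbours on chromosome 19.

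Because the libraries read transcripts from their 3′ ends, the last 70 bases of a reference transcript of each gene are shown, 5′ to 3′, from GENCODE (GRCm38). Capitals mark the last polyadenylation signal, AATAAA or ATTAAA, within the final 50 bases.
Snhg1 (chr19:8726276-8726345, +): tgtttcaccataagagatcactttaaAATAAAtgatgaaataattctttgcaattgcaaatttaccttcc
Snhg3 (chr4:132351933-132352002, −): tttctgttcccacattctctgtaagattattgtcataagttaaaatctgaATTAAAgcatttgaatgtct
Snhg6 (chr1:9942025-9942094, −): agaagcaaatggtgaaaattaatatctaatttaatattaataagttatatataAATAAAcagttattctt
Snhg8 (chr3:123507552-123507621, −): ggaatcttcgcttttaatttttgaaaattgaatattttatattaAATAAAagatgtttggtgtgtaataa
Snhg12 (chr4:132310955-132311024, +): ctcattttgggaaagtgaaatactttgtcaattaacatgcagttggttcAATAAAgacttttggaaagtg
Gas5 (chr1:161038470-161038539, +): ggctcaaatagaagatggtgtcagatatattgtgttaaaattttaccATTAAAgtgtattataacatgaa
Malat1 (chr19:5795690-5795759, −): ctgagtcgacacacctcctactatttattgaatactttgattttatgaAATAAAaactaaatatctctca
Neat1, short form (chr19:5842307-5842376, −): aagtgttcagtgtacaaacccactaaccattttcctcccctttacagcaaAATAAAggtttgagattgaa
Neat1, long form (chr19:5824708-5824777, −): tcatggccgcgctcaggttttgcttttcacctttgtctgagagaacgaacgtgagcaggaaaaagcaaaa
A signal was found at every end but that of the long form of *Neat1*, against 30.8% of the 30172 long noncoding transcripts and 33.8% of all 141672 transcripts in the same annotation. The ends shown were chosen as those nearest the RefSeq end of each gene, with the short form of *Neat1* added. The percentages cover transcripts without such a choice, so the sets are not alike. The signal began 17 to 44 bases before the annotated end. The long form of *Neat1* is known to end in a genome-encoded A-rich tract and not in a poly(A) tail, and the counts do not separate it from the short form (3004 bases against 20771).

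Mature *Malat1* is also known to end in a genome-encoded A-rich tract, released when a small tRNA-like RNA is cut off downstream of it. The longest run of A in the *Malat1* reference transcript, 12 bases in capitals below, lay at positions 6674 to 6685 of 6983, with 298 bases after it.
Malat1, A-rich tract: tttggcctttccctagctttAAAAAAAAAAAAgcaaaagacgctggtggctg
The reads were counted per gene, so those primed at this tract and those primed at a poly(A) tail were not told apart. *Snhg12* had a run of A of the same length, 1067 bases from its 3′ end, and in the other *Snhg* genes and *Gas5* the longest run was 4 or 5 bases.

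RNAs of snoRNA hosts are known to start with a tract of pyrimidines, as the mRNAs of the translation machinery do. The annotated starts are shown from 10 bases before the first transcribed base to 40 bases on, from the RefSeq promoter set (GRCm38.p6), which holds 7 starts of 6 of the 8 genes. Capitals mark the unbroken run of C and T that begins at the first transcribed base.
Snhg1 (chr19:8723477-8723526, +): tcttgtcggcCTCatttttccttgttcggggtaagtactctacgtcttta
Snhg3 (chr4:132353647-132353696, −): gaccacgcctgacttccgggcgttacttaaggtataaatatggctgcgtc
Snhg8 (chr3:123508297-123508346, −): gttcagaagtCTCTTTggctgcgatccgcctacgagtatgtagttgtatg
Snhg12 (chr4:132308668-132308717, +): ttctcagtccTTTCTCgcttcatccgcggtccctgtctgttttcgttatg
Gas5, inner start (chr1:161035156-161035205, +): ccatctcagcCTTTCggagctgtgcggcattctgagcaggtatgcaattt
Gas5, outer start (chr1:161034591-161034640, +): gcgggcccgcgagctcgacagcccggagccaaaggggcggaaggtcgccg
Malat1 (chr19:5802633-5802682, −): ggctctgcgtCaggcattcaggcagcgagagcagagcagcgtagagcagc
A first base of C with at least 4 more pyrimidines was present at 2 of the 7 starts, those of *Snhg8* and the inner start of *Gas5*, and at 2.51% of the 32851 starts in the set. The run of *Snhg12* was 6 pyrimidines long but began with T, and that of *Snhg1* was broken by an A after CTC. These are descriptions of annotated letters, and the true start in this tissue was not measured.

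**Figure D1:**
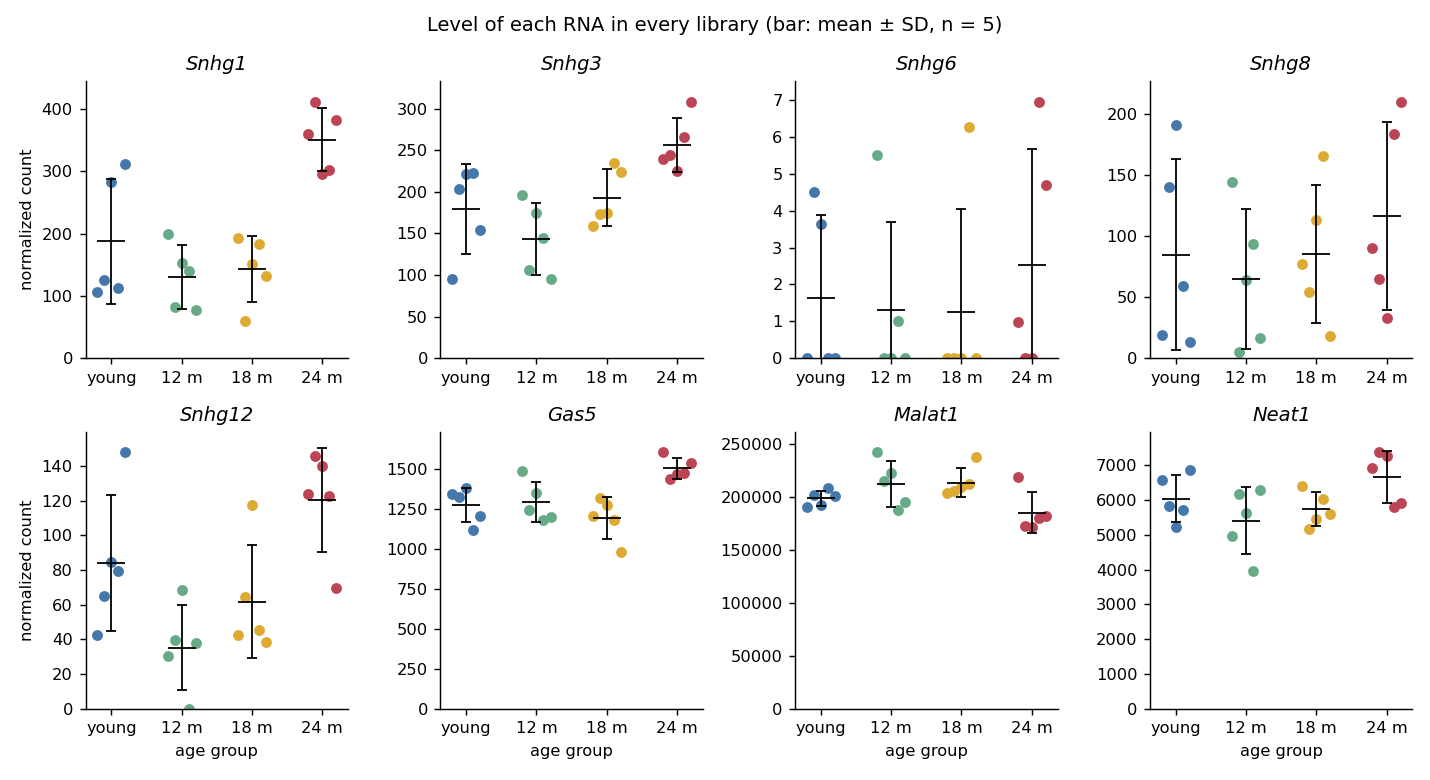
Normalized count (vertical axes, each from 0) of the 8 RNAs in every library, by age group (horizontal axes), with the mean and SD of 5 libraries as bars. The 24-month libraries of Snhg1 lie between 295 and 412, those of Gas5 between 1441 and 1606, and the libraries of Snhg8 spread over most of its range at every age.

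*Snhg1*, known for a long row of box C/D snoRNAs in its introns, was the gene picked for its rise. The young libraries had 106, 125, 283, 112 and 311 normalized counts and the 12-month libraries 199, 81.6, 153, 140 and 77.7. The 18-month libraries had 193, 59.8, 151, 183 and 132, and the 24-month libraries 360, 412, 295, 303 and 383. All 5 of the oldest animals were above all 10 animals of 12 and 18 months, but 1 young library, at 311, was above 2 of them.

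The young group of *Snhg1* fell into 3 libraries at or below 125 and 2 at or above 283. Its mean was 188 ± 100.7 normalized counts (SD, n = 5), against 130 ± 51.4 for the 12-month, 144 ± 52.8 for the 18-month and 351 ± 50.7 for the 24-month group. The 24-month mean was thus 2.69 times the 12-month mean, which is the contrast that chose the gene, 2.44 times the 18-month mean and 1.87 times the young mean. The only contrast that was tested was 18-month against young, with a log2 difference of −0.33 (95% confidence interval −0.99 to 0.33, limma adjusted p = 0.935). Its neighbour *Slc3a2*, an amino acid transporter subunit that lies 106 bases away on the other strand, had means of 1061 ± 324, 1054 ± 63.9, 1167 ± 176 and 1433 ± 184 in order of age. All 5 of the 24-month libraries of *Slc3a2* were above all 12-month ones, and the adjusted p was 0.228.

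The comparisons used log2 values, log2 of the normalized count plus 1, in limma, a linear model that shares the spread between genes. A differentially expressed gene (DEG) had an adjusted p of 0.05 or less and a fold change of 1.2 or more. The fit took in 11288 genes whose mean was 10 normalized counts or higher. The comparisons share libraries (the young group enters 4 of the 7), so their values are not independent of each other. None of the 6 tested members other than *Snhg1* was a DEG in any comparison. Against young, the share of tested genes that were DEGs was 0.532% for the 12-month group, 0.673% for the 18-month group, 0.78% for the 24-month group and 1.01% for the 15 aged libraries together. Between the aged groups the share was 0.00886% for 18-month against 12-month, 0.195% for 24-month against 12-month and 0% for 24-month against 18-month. The 22 genes behind the 0.195% became 84 without young replicate 1, 68 without 12-month replicate 1 and 0 without 12-month replicate 5 or any of 24-month replicates 1, 2, 3 and 5. At an unadjusted p below 0.05, 2 of the 6 members passed at 24 months against young (9.97% of all genes did) and 4 of 6 at 24 against 12 months (14.7%). The same numbers were 1 of 6 at 12 months against young (9.56%), 1 of 6 at 18 against 12 months (7.43%) and 1 of 6 at 24 against 18 months (5.31%), and they were 0 of 6 at 18 months against young (7.18%) and in aged against young (7.89%). With voom on recovered reads, 0 members were called. At an unadjusted p below 0.05 voom passed 5 of 6 at 24 against 12 months (13.7% of all genes) and 3 of 6 at 24 against 18 months (5.7%).

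For 5 of these 6 genes the mean normalized count was highest at 24 months, as it was for 28.4% of all tested genes. In 4 of the 6, *Snhg3*, *Snhg8*, *Snhg12* and *Neat1*, it was also lowest at 12 months, against 14% of all tested genes. *Gas5* had its lowest mean at 18 months and *Malat1* at 24 months. The median log2 difference of the 6 at 24 months was 0.41 against young and 0.60 against 12 months, where the medians of all tested genes were 0.0052 and 0.020. The members were chosen with earlier results of these data known, beside a gene picked for its rise from 12 to 24 months. These shares and medians, and the counts at an unadjusted p, are thus descriptions and not independent support for a rise.

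**Figure D2:**
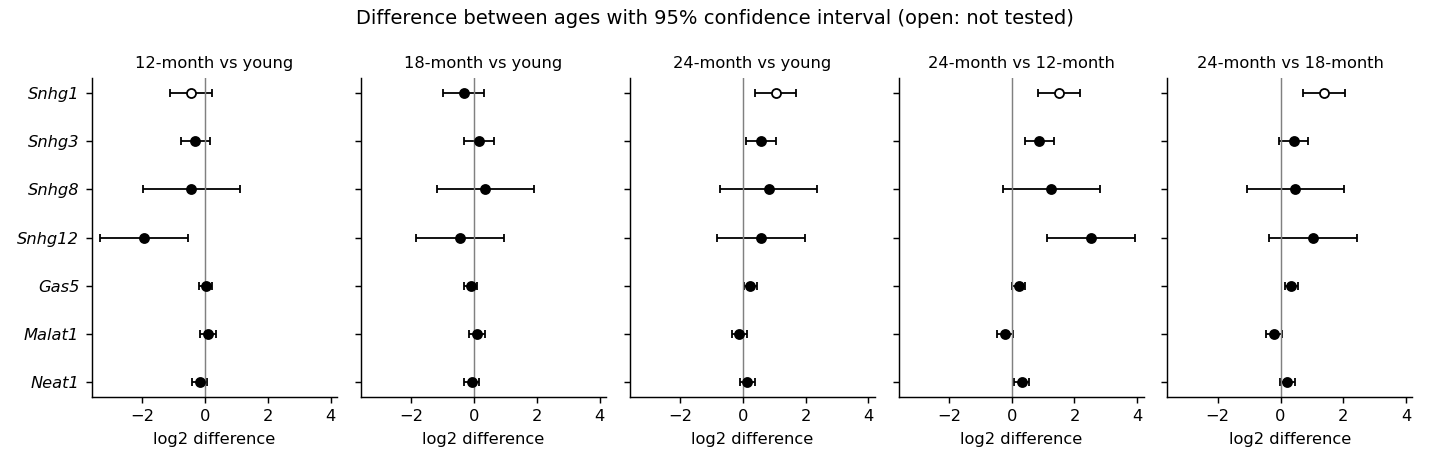
Log2 difference between ages (horizontal axes) of the 7 genes above the filter, 1 panel for each of 5 comparisons, with 95% confidence intervals from limma as bars; open points were not tested. The 24-month panels lie mostly to the right of 0, with Malat1 to the left, and no filled point passed the adjusted threshold.

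*Snhg3*, host of the H/ACA snoRNAs *Snora73a* and *Snora73b*, had the smallest adjusted p of the 6. In the young group *Snhg3* had 95.4, 203, 221, 223 and 155 normalized counts, and the 12-month libraries 197, 107, 175, 144 and 95.6. At 18 months the libraries had 159, 174, 175, 235 and 224, and the 24-month libraries 240, 244, 225, 266 and 309. The oldest group thus lay wholly above the young and the 12-month groups, while 1 of its 5 libraries was within the 18-month range. All 5 libraries of the first group were above all 5 of the second in 1.26% of tested genes for 24-month against young and in 1.5% for 24-month against 12-month.

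The log2 difference of *Snhg3* was 0.57 at 24 months against young (SE 0.23, limma adjusted p = 0.367) and 0.88 against 12 months (SE 0.23, adjusted p = 0.0943). The exact permutation test over 5 libraries against 5 gave p = 0.00794 for both, the smallest p that this design allows. Without young replicate 1, whose *Snhg3* count of 95.4 was the lowest of all, the fit gave an adjusted p of 0.0333 for 24 against 12 months, and without 12-month replicate 1 it gave 0.0411. Between the 18-month and young groups the difference was 0.16, within the spread of the libraries. *Rcc1*, the exchange factor of the nuclear transport GTPase Ran, overlaps *Snhg3* on the same strand. How the counting treated reads in this overlap is not given in the sources used here. *Rcc1* had means of 50.2 ± 33.3, 38.5 ± 25.8, 77.3 ± 47.3 and 84.1 ± 29.4 in order of age, with overlapping groups.

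*Snhg12*, which hosts both H/ACA and C/D snoRNAs, was lowest at 12 months. Its young libraries had 42.8, 65.2, 84.9, 79.5 and 148 normalized counts and its 12-month libraries 30.3, 39.5, 68.6, 0 and 38.2. The 18-month libraries had 42.7, 64.5, 118, 45.7 and 38.7, and the 24-month libraries 124, 146, 140, 123 and 69.6. The 24-month libraries were all above the 12-month ones, by a narrow gap of 69.6 against 68.6, and 4 of 5 were above all 18-month libraries. At 12 months 4 libraries were below all of the young.

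For 24 against 12 months the log2 difference of *Snhg12* was 2.53 (SE 0.68, limma adjusted p = 0.101, exact permutation p = 0.00794). Much of its size came from the 1 library with 0 reads: without 12-month replicate 4 it was 1.45 (adjusted p = 0.108). With 10 added to the counts before the logarithm in place of 1 it was 1.75, and the adjusted p was 0.0482. At 12 months against young the difference was −1.95 (SE 0.68, adjusted p = 0.29, exact permutation p = 0.0238), and −0.86 without 12-month replicate 4 (adjusted p = 0.479). A count of 0 allows up to 3 reads, which is 2.25 to 3.95 normalized counts depending on the library.

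*Gas5*, first known as an RNA that builds up in growth-arrested cells, was the steadiest of the hosts. In the young group *Gas5* had 1344, 1327, 1382, 1121 and 1209 normalized counts and the 12-month libraries 1485, 1243, 1350, 1183 and 1200. At 18 months the libraries had 1205, 1321, 1275, 1182 and 983, and the 24-month libraries 1606, 1441, 1468, 1475 and 1538. The 24-month group lay above every young and every 18-month library, but 1 library of 12 months, at 1485, was within it. All 5 of one group were above all 5 of the other for 0.558% of tested genes at 24 against 18 months.

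The 24-month mean of *Gas5* was 1506 ± 66.4, against 1276 ± 108 in the young, 1292 ± 126 at 12 months and 1193 ± 130 at 18 months. The fitted difference at 24 months was 0.24 on the log2 scale against young, 1.18-fold (95% confidence interval 1.02 to 1.37, limma adjusted p = 0.42). Against 18 months it was 0.34, 1.27-fold (1.09 to 1.47, adjusted p = 0.919), and the exact permutation p was 0.00794 for both. In the contrast of 24 against 18 months 0 of all genes were called by limma and 599 had an unadjusted p below 0.05. Order by mean put the other 3 ages within 1193 to 1292, and the exact permutation p between them was 0.302 to 0.873. *Zbtb37* overlaps the start of *Gas5* on the other strand and had 7.53 to 66.1 normalized counts.

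*Snhg8*, host of *Snora24*, varied the most within an age. In the young group *Snhg8* had 18.6, 140, 191, 59.3 and 13.3 normalized counts and the 12-month libraries 144, 5.26, 64.3, 93.2 and 16.6. At 18 months the libraries had 76.8, 54.0, 113, 166 and 18.4, and the 24-month libraries 89.7, 65.0, 33.1, 184 and 210. Every age held libraries at or below 33.1 and at or above 144, so all groups overlapped. The log2 difference at 24 months was 0.82 against young (SE 0.75) and 1.27 against 12 months (SE 0.75), with adjusted p of 0.767 and 0.435. The 95% interval of the first ran from 0.61-fold to 5.17-fold. The SD of its log2 values within an age was 1.49, against 0.13 for *Gas5*, 0.12 for *Malat1* and 0.19 for *Neat1*.

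*Snhg6* had 0 reads in 12 of the 20 libraries and 1 to 8 reads in the rest. The young libraries had 0, 4.50, 3.65, 0 and 0 normalized counts, the 12-month libraries 5.52, 0, 0, 1.00 and 0, the 18-month libraries 0, 0, 0, 6.27 and 0, and the 24-month libraries 0.975, 0, 0, 6.96 and 4.71. No difference between ages was detectable at this depth. *Mcmdc2* overlaps the 3′ end of *Snhg6* on the other strand (up to chr1:9942085) and had 0 to 13 reads per library. How reads in this overlap were counted is not given in the sources used here. The snoRNA *Snord87* (chr1:9942463-9942549, − strand), which lies in an intron of *Snhg6*, had more reads than the spliced host, at 16 to 75 per library. It is shown with box C (TGATGA) and box D (CTGA), the motifs that mark a C/D snoRNA, in capitals.
Snord87: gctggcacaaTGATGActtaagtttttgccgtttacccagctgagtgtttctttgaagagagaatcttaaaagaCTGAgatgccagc
Both boxes, each searched on the given strand within 20 bases of its end, were found in 16 of the 27 snoRNA transcripts inside the members and in 20.6% of the 1507 in the annotation. By host they were found in 6 of 8 in *Snhg1*, 8 of 10 in *Gas5*, 1 of 5 in *Snhg12*, 1 of 1 in *Snhg6* and 0 in *Snhg3* and *Snhg8*.

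The snoRNA genes themselves were rarely counted. Inside the 6 hosts 8 snoRNA genes had a row in the table, and 1 of them, *Snora24*, had 0 reads in all libraries. *Snord87* and *Snord22* passed the filter. *Snord87* had 82.2, 14.99, 22.8, 51.9 and 51.2 normalized counts in the young libraries and 15.6, 52.6, 50.4, 67.1 and 89.2 in the 12-month libraries. It had 24.4, 44.6, 50.02, 14.3 and 51.3 in the 18-month libraries and 21.5, 13.8, 17.0, 14.8 and 16 in the 24-month libraries. The 24-month libraries sat together at the low end, and each younger group held 1 library as low. The log2 difference was −1.15 against young and −1.49 against 12 months (SE 0.48 for both), and neither passed (limma adjusted p = 0.403 and 0.159).

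*Snord22*, inside *Snhg1* (chr19:8725866-8725991, + strand), is known to be needed for the processing of small-subunit ribosomal RNA. Its means were 21.1 ± 8.66, 22.7 ± 7.62, 32.8 ± 20.4 and 26.8 ± 14.2 normalized counts in order of age. The 24-month against 12-month difference of *Snord22* was 0.10 on the log2 scale (SE 0.51), beside 1.5 for *Snhg1*. An oligo-dT primer does not favour snoRNAs, which have no poly(A) tail, and whether the counting used strand or split overlapping features is not given in the sources used here, so a read in a snoRNA row cannot be told apart from a read of the host precursor.

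*Malat1* had the fourth highest mean of all genes and took 2.02% to 3.01% of the reads of a library. The young libraries had 190112, 201097, 192020, 208122 and 200480 normalized counts and the 12-month libraries 241859, 214816, 222198, 187538 and 195199. The 18-month libraries had 203402, 205415, 208787, 211633 and 237235, and the 24-month libraries 218848, 172199, 171778, 180040 and 181511. At 24 months 4 libraries were lower than any library of the other 3 ages, and replicate 1 was above all young ones.

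For *Malat1* the 24-month group differed by −0.11 from young on the log2 scale (95% confidence interval −0.36 to 0.14), by −0.20 from the 12-month group (−0.45 to 0.051) and by −0.21 from the 18-month group (−0.46 to 0.041). None passed (limma adjusted p = 0.821, 0.451 and 0.919), and the exact permutation p was 0.151, 0.0635 and 0.0397. At 18 months against young it was 0.10 (adjusted p = 0.949), and −0.052 after quantile normalization. That step sets the value of so high a gene by its rank alone, so it cannot test the direction.

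*Neat1* varied less within an age than any *Snhg* gene, with an SD of its log2 values of 0.19. The young libraries had 6586, 5819, 5216, 5711 and 6867 normalized counts and the 12-month libraries 4956, 6187, 5629, 3960 and 6289. The 18-month libraries had 6405, 5171, 5456, 6039 and 5597, and the 24-month libraries 6932, 7379, 7274, 5817 and 5907. At 24 months 3 libraries were above all others of any age, and the remaining 2 lay in the range of the other groups. The log2 difference at 24 months was 0.31 against 12 months (SE 0.12, limma adjusted p = 0.224, exact permutation p = 0.0635) and 0.14 against young (SE 0.12, adjusted p = 0.742).

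**Figure D3:**
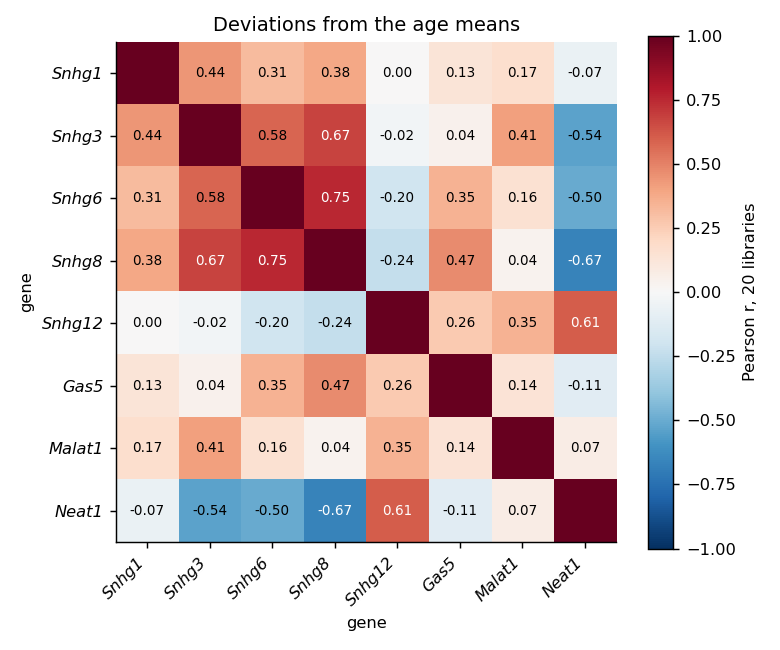
Pearson r between the 8 genes over 20 libraries, computed from log2 values after the mean of each age was removed (red above 0, blue below 0, colour scale from −1 to 1). Snhg3, Snhg6 and Snhg8 form a block of positive values, and Neat1 is negative with each of them.

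How the members moved together between animals of 1 age was examined with the deviations of log2 values from the age means, over 20 libraries and 28 pairs. For *Snhg6* and *Snhg8* the deviations had Pearson r = 0.75 and Spearman rho = 0.80 (permutation p = 0.00099 and 0.00022, adjusted p = 0.0277 and 0.00616). Without the 2 libraries farthest from the median of *Snhg6*, r was 0.71. *Snhg6* was at 0 in 12 of the 20 libraries and had 8 reads at most, and at 18 months only replicate 4 had any, so this r rests on few reads. *Snhg3* and *Snhg8* had r = 0.67 and rho = 0.71 (permutation p = 0.00742 and 0.00502, adjusted p = 0.0556 and 0.0469), and r was 0.66 without 2 libraries. Within each age r of *Snhg6* and *Snhg8* was 0.87, 0.71, 0.60 and 0.93 from young to 24-month. The r of *Snhg3* and *Snhg8* was 0.75, 0.86, −0.12 and 0.89, each over 5 libraries, and the difference between ages was not tested. Genes outside the members reached higher r of deviations, 0.94 for *Tsnax* with *Snhg8* and 0.96 for *Ube2g2* with *Snhg3*. An r of this size is thus not particular to pairs of these noncoding RNAs.

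*Neat1* ran opposite to *Snhg8*. For this pair r was −0.67 and rho −0.68 (permutation p = 0.00741 and 0.00465, adjusted p = 0.0556 and 0.0469), and r was −0.58 without the 2 farthest libraries. Within ages it was −0.94, −0.74, 0.32 and −0.91. When total reads replaced the size factors as the scale, r of *Neat1* and *Snhg8* was −0.43. *Malat1* and *Neat1*, the 2 nuclear RNAs, had r = 0.073 (permutation p = 0.816).

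**Figure D4:**
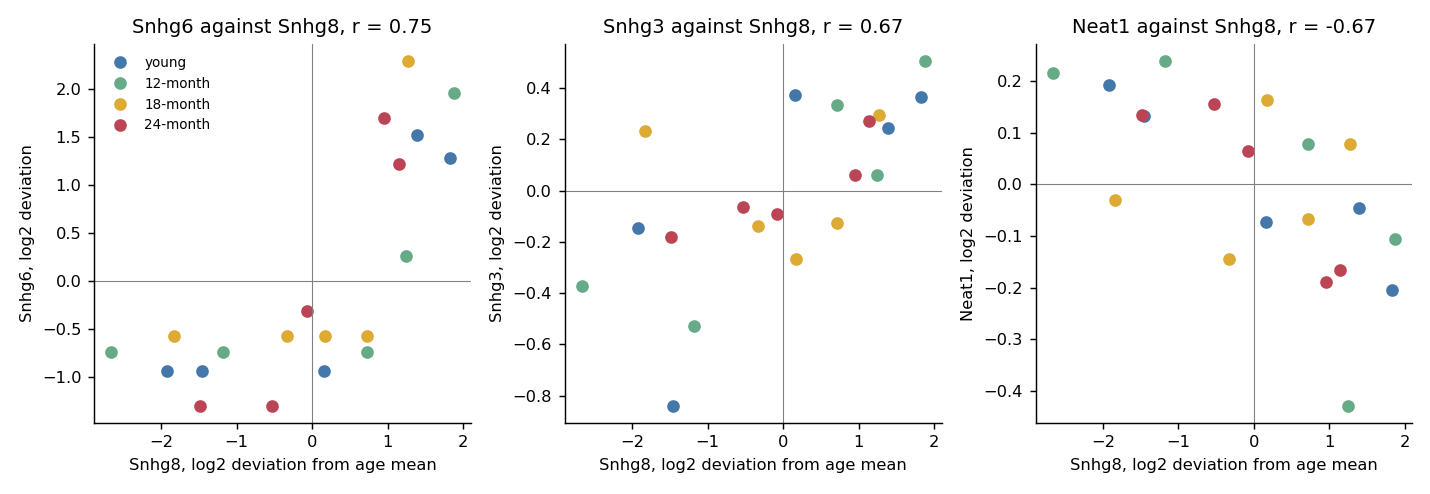
Deviation of Snhg6, Snhg3 and Neat1 from their age means (vertical axes, log2) against that of Snhg8 (horizontal axes, log2) in the 20 libraries, coloured by age. The first 2 panels rise, with r of 0.75 and 0.67, and the third falls, with r of −0.67.

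The deviations of all tested genes, the members included, held 15.98% of their variance on a first component, and the members followed it to unequal degrees. Over 20 libraries r with this component was 0.87 for *Snhg3* (rho 0.86, permutation p = 4e-05 for each, adjusted p = 0.00056 and 0.00049), and 0.78 without the 2 libraries farthest out, young replicate 1 and 12-month replicate 5. For *Snhg8* it was 0.80 (rho 0.86, adjusted p = 0.00273 and 0.00049), and for *Snhg1* 0.64 (rho 0.56, adjusted p = 0.0347 and 0.0787). *Neat1* was negative at −0.59 (rho −0.66, adjusted p = 0.0687 and 0.0349). *Gas5*, *Snhg12* and *Malat1* had r between −0.20 and 0.28. None of the 7 had an adjusted p at or below 0.05 against the depth of the library, and these 14 relations were adjusted together. The component was drawn from these same genes, so the p-values do not measure a relation particular to the members. Among all tested genes, 126 had an absolute r of 0.9 or more with it. What this component stands for was not tested.

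By Pearson r over the log2 values of the 20 libraries, the genes most like *Snhg1* were *Prss22* (0.86), *Zfas1* (0.85), *Nradd* (0.82), *Sipa1l3* (0.79) and *Llgl2* (0.79). Among them *Zfas1* is also a snoRNA host. Closest to *Gas5* were *Tmem201* (0.72), *Tmem138* (0.70) and *Chchd1* (0.69), and closest to *Neat1* were *Plxnb1* (0.85), *Upf1* (0.83) and *Snx11* (0.83). *Upf1* is the helicase at the core of nonsense-mediated decay. The genes most like *Malat1* were *Kcnq1ot1* (0.84), *Clca4a* (0.77) and *Ankrd12* (0.77). *Kcnq1ot1*, another nuclear long noncoding RNA, is known for silencing of an imprinted domain, and its 24-month libraries had 1556 to 1847 normalized counts against 1761 to 2146 in the young. These likenesses are over libraries that share depth and composition, and are descriptions.

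*Zfas1* had the pattern of *Snhg1* with less spread. The young libraries had 119, 112, 144, 126 and 153 normalized counts and the 12-month libraries 155, 112, 110, 82.2 and 86.7. At 18 months *Zfas1* had 113, 86.8, 96.9, 159 and 119, and the 24-month libraries 233, 224, 186, 194 and 182. The 24-month group was above every library of the other 3 ages, which was so for 6 of the tested genes (0.0532%). The log2 difference was 0.64 against young, 0.92 against 12 months and 0.84 against 18 months (SE 0.21 for each). None passed (limma adjusted p = 0.209, 0.0501 and 0.73). *Zfas1* came under the rule through its likeness to *Snhg1*, which was itself picked for a high level at 24 months.

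**Figure D5:**
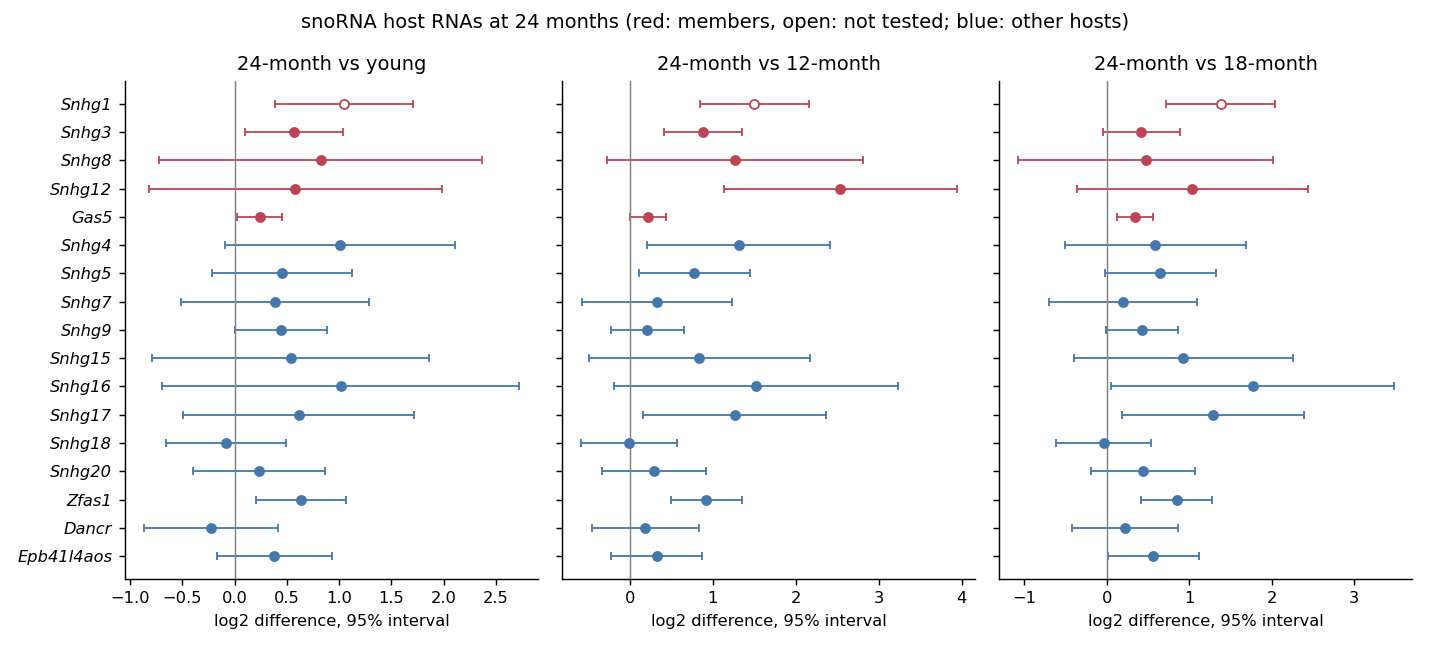
Log2 difference with 95% confidence interval (horizontal axes) at 24 months against young, 12-month and 18-month libraries for 17 snoRNA host RNAs, with members in red, the untested Snhg1 open, and the other hosts in blue. Most points lie above 0 in all 3 panels, and none of the filled points passed the adjusted threshold.

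The list of other snoRNA hosts held 15 genes, of which 12 were tested. None was a DEG in any of the 7 comparisons. At 24 months against young 10 of 12 were higher and 2 lower, with a median log2 difference of 0.45, against 12 months 11 of 12 were higher, with a median of 0.56, and against 18 months 11 of 12, with a median of 0.57. For comparison, 50.7%, 52.2% and 51.3% of all tested genes were higher. At 12 months against young the list lay the other way, with 3 higher and 9 lower (48.3% of all tested genes were higher) and a median of −0.29. The list was written with earlier results of these data known, and the comparisons at 24 months share the same 24-month libraries. Its genes were not shown to vary independently, so these counts are descriptions. *Snhg16* had the highest difference at 24 months against young, 1.02 (SE 0.83, limma adjusted p = 0.735), and *Dancr*, which is known to restrain differentiation of epidermal progenitors, the lowest, −0.23 (SE 0.31, adjusted p = 0.865).

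No gene of the proteins that work with these RNAs was a DEG at 24 months against young. The list of snoRNP proteins and their assembly factors, which pack snoRNAs into particles, had 0 of 19 called, with 6 higher and 13 lower at 24 months against young (median −0.090). *Shq1*, a chaperone of dyskerin, had a difference of 0.56 (SE 0.47) and the assembly helicase *Ruvbl2* one of −1.06 (SE 0.57), with adjusted p of 0.745 and 0.568 by limma. Of 17 nonsense-mediated decay and exon junction factors 0 were called and 7 were higher (median −0.078), with *Upf1* at 0.28 (SE 0.18) and *Nbas* at −0.65 (SE 0.23) at the ends. Of 17 translation genes with a terminal oligopyrimidine start 0 were called and 9 were higher (median 0.036), from *Btf3* at −0.57 (SE 0.46) to *Hnrnpa1* at 0.69 (SE 0.49).

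Of 15 paraspeckle proteins 0 were called and 10 were higher at 24 months against young (median 0.058). The RNA-binding protein *Hnrnph3* had the highest difference, with 246 ± 50.7 normalized counts in the young and 414 ± 74.4 at 24 months, with no overlap between the groups, a log2 difference of 0.76 (SE 0.21) and a limma adjusted p of 0.109. *Nudt21*, a 3′ end processing factor, had the lowest, −0.92 (SE 0.75). Of 21 nuclear speckle and splicing proteins 0 were called and 11 were higher (median 0.025), from the kinase *Prpf4b* at −0.39 (SE 0.14) to the splicing factor *Srsf7* at 0.37 (SE 0.17).

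Among 15 tested genes of the other long noncoding RNAs 1 was a DEG, the imprinted *Meg3*, which fell at 24 months against young. Its young libraries had 35.1, 61.5, 36.5, 11.7 and 45.5 normalized counts and its 24-month libraries 0.975, 0, 3.78, 1.74 and 0.941. The groups did not overlap, and the log2 difference was −3.98 (SE 0.95, limma adjusted p = 0.0378). The call was lost without any 1 of the 24-month libraries and without any of young replicates 1, 2, 3 or 5. The 24-month values were at or below 4 reads, near the limit of counting. *Firre*, an RNA that holds chromosome sites together in the nucleus, had the highest difference, 0.69 (SE 0.22, adjusted p = 0.199). The keratocyte markers moved in the same contrast as *Meg3*, with 5 of their 8 tested genes DEGs and lower at 24 months, among them *Col1a1* and *Dcn*, and their part was not tested.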

How the data were processed

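Corneal epithelium of 20 mice was measured as bulk RNA. Per the labels and methods, the authors used cutadapt for trimming, STAR for alignment to GRCm38 and HTSeq for counting, and scaled the libraries with DESeq2 (relative log expression). Versions are not given in the sources used here. What the authors deposited is a log2 value per gene and library, with 1 added to the normalized count, and the authors also deposited a mean signal per gene, used here only to check the scale. The authors' own fold changes and p-values were deposited too and were not used. In all 4 tables shared values agreed (0 differed). Every value gave back whole reads (100% within 0.01 of a read), with size factors of 0.7603 to 1.334. Chi-square divided by its degrees of freedom was 11.3 to 109.5 over the 40 pairs of same-age libraries, so no library was a copy of another of its age.

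The fits were run in limma 3.58.1 under R 4.3.3, with tables handled by data.table (version 1.17.8), pandas 2.3.3 and numpy 2.4.6 under Python 3.11.15. Permutations used scipy 1.17.1 (100000 within ages for correlations) and plots matplotlib 3.10.9. Since the unit is log2 and not counts, limma with a trend was the main test, in 1 fit of the 4 ages, and in a fit of 2 groups for aged against young, with Benjamini-Hochberg adjustment over all tested genes. Genes with a mean normalized count under 10 were left out. The fit was tested on simulated data: over 10 simulations of 24-month against young with 11288 genes it called 49% of 200 changed genes, and 5.04% of its calls were unchanged genes. Genes were drawn independently, and every planted change was larger than the 1.18-fold of *Gas5* at 24 months against young. These shares thus do not cover smaller changes or genes that vary together.

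The members, lists and the rule for named genes were chosen with earlier results of these data known. That rule takes the members, the nearest or overlapping genes, the snoRNAs inside them, list genes that passed or had the largest rise or fall at 24 months against young, and the genes most like *Snhg1* (5) and *Gas5*, *Malat1* and *Neat1* (3 each). The relation to the first component of the deviations and the values of *Zfas1* by library were added after the data were seen. So were the r of *Tsnax* with *Snhg8* and of *Ube2g2* with *Snhg3*, which that rule does not take. One gene that the rule takes is not reported here. *Snhg16* was found by its gene identifier under an older symbol. Lists of corneal epithelium, keratocyte, conjunctiva, leukocyte, Schwann cell, melanocyte and vessel markers and of early stress response genes were also counted. At 24 months against young, genes called lower were 5 of 8 keratocyte and 1 of 5 conjunctiva markers (*Krt4*), and 0 were called in the other lists, which had 12, 5, 2, 2, 1 and 11 tested genes in the order given. Intervals and floors cover counting error or the spread of libraries only, since no molecular identifiers are named. Alternatives were another normalization, another filter, fits restricted to 2 groups, a block for the replicate number, other fold thresholds and pseudocounts, voom on the recovered reads, and each library left out.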

Additional observations from a re-analysis of the deposited data

Results flagged for a closer look

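Of the 32 sets of 5 libraries of 1 age (8 genes at 4 ages), 4 held a library far from the other 4, by a gap of more than 0.71 of the range of the set. Chance alone flags about 1 in 20 such sets when values are normally distributed. That rate does not hold for the sets of *Snhg6*, which are mostly 0, and it was not computed for these data. *Malat1* in 24-month replicate 1 had 218848 normalized counts, where the next of its group had 181511. In 18-month replicate 5 it had 237235, where the next had 211633. *Snhg6* had 5.52 normalized counts in 12-month replicate 1, and 6.27 in 18-month replicate 4 with the other 4 libraries at 0. Without 24-month replicate 1 the log2 difference of *Malat1* at 24 months was −0.17 against young.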

How the results depend on the processing

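The number of members called was 0 under every alternative against young and in aged against young. Between aged groups it was 0 under all alternatives except that it ran from 0 to 1 with 1 library left out, the 1 being *Snhg3*. A pseudocount of 10 was tried on single fold changes, and there *Snhg12* passed at 24 against 12 months (adjusted p = 0.0482). Genes of the pathway lists called in at least 1 comparison numbered 1 (*Meg3*), and 2 in fits of only the 2 groups compared and with voom (*H19* as well), and 0 to 3 with 1 library left out. With the filter at a mean of 50, *Zfas1* was called and *Meg3* was not tested. That call is not independent support, since *Zfas1* is alike in level to *Snhg1*, which was itself picked for a high level at 24 months. By Pearson r, pairs of members with an adjusted permutation p of 0.05 or less numbered 1, and 5 when libraries were scaled by total reads. By Spearman rho, *Snhg3* with *Snhg8* and *Snhg8* with *Neat1* passed as well (adjusted permutation p = 0.0469 for each).

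Of 1284 recomputed values of 43 tested fold changes, 25 changed direction, with a value of 0 counted as a change. Of 179 values of the 6 untested differences of *Snhg1*, 6 did, with 1 library left out: at 18 against 12 months it ran from −0.038 to 0.41 and in aged against young from −0.074 to 0.31. After quantile normalization *Gas5* at 12 months against young was −0.012, and *Malat1* was 0 at 12 months against young, −0.052 at 18 months against young and against 12 months, and −0.035 in aged against young. The *Malat1* values after this step follow its rank among the highest genes, so they cannot test its direction. Without both 18-month replicate 2 and young replicate 4, *Gas5* at 12 months against young was −0.03. With 1 library (or those 2) left out, direction changed within −0.055 to 0.28 for *Snhg3* at 18 months against young and −0.069 to 0.24 in aged against young. The ranges for *Snhg8* were −0.92 to 0.22 at 12 months, −0.12 to 0.81 at 18 months and −0.23 to 0.70 in aged against young. *Gas5* at 12 months against young ran from −0.035 to 0.047, and *Malat1* at 18 against 12 months from −0.033 to 0.059. *Neat1* ran from −0.0058 to 0.16 at 18 against 12 months and from −0.086 to 0.013 in aged against young. The cause was not tested.

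The labels give every age the replicate numbers 1 to 5, which only name animals. Same-numbered libraries of different ages did not deviate together (median r 0.0077 over 30 pairs, 0.0035 over 120 others), and 3 of 20 libraries correlated best with their own number. With the replicate number as a block, 0 members were called against young, 0 between aged groups and 0 in aged against young, 1 list gene was called, and the count over all genes at 24 against 12 months was 11 in place of 22 (0 to 84 with 1 library left out). That count was 35 with the filter at a mean of 50 and 0 with no filter, and 38 genes were called with voom at 12 months against young in place of 60.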
